A study of Mus musculus with 2 samples.

Results

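Prrx1, Prrx2, Alx1, Alx4, Shox2, Pitx1, Msx1 and Msx2 are homeobox genes that pattern the mesenchyme of the limb bud. Their expression was read in samples labelled limb bud from Bhlha9 knockout (KO) and wild-type (WT) mouse embryos at E10.5. Each genotype was represented by 1 microarray, and both lines were on the C57BL/6 strain. The members were taken by name, as all probe sets annotated with 1 of these 8 symbols and no other, where a probe set is a group of short oligonucleotides against one transcript. This gave 18 probe sets out of 34945 with a single symbol, covering 8 of 18193 genes, and 0 probe sets were left out for carrying a member's symbol together with another. Neither the allele and the design of the knockout, nor the number of embryos behind each RNA, nor the mix of fore and hind limb buds is given in the sources used here. Whether adjacent tissue was dissected with the limb buds is not stated there either.

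Homeobox genes encode transcription factors that bind DNA through a homeodomain, a fold that recognises short AT-rich cores. Prrx, Alx, Shox and Pitx proteins carry a paired-type homeodomain, whereas Msx proteins belong to a separate class and act mostly as repressors downstream of bone morphogenetic protein (BMP) signals. In the mouse limb bud, Prrx1 and Prrx2 mark the early mesenchyme broadly, Shox2 is needed for the proximal skeleton, Pitx1 gives hindlimb identity, Alx4 restrains anterior outgrowth, and Msx1 and Msx2 are expressed in distal mesenchyme and, for Msx2, in the apical ridge. Bhlha9, the gene knocked out, encodes a basic helix-loop-helix factor expressed in the limb bud.

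With a single array per genotype the genotypes could not be tested against each other, and every difference below is one between these arrays, with no error between animals. Signals were the authors' MAS 5.0 intensities, on which the median probe set read 77.3 on the KO array and 79.6 on the WT array. A signal was taken as detected above the 40th percentile of its array, 41.8 on the KO array and 41.2 on the WT array, called the floor here. The log2 ratio is KO over WT. As a yardstick within the arrays, the ratios of the brightest pair of probe sets were set against each other in 5440 genes. Their difference had a robust SD of 0.396, or 0.28 for 1 ratio, which does not cover the spread between animals or between tissue samples. The only probe set of Bhlha9 read 1.70 on the KO array and 7.87 on the WT array, under the floor on both, so it does not check the genotypes.

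Of the 18 probe sets, 16 were above the floor on both arrays, 0 on a single array and 2 on neither. Shox2, Pitx1 and Msx1 were at least 2-fold lower on the KO array at every probe set, Alx1 was at least 2-fold higher at both of its probe sets, and Prrx1, Prrx2 and Msx2 lay mostly between these limits. In all, 7 of the 16 probe sets were at least 2-fold lower on the KO array, against 4.51% of all 29201 probe sets detected on at least 1 array. Another 2 were at least 2-fold higher, against 3.22% of all, and 7 lay within 2-fold. Differences of at least 3-fold were read for 3 probe sets, all lower, against 0.709% of all. Counted by gene, with each gene read by its brightest probe set, 3 of 7 members passed 2-fold in the lower direction and 1 in the higher, where the shares over all 13088 detected genes were 2.65% lower and 4.15% higher. The median log2 ratio was -0.79 over the 16 probe sets, against -0.05 over all detected probe sets. These counts depend on what is taken as unchanged. With ratios centred on 13 other limb mesenchyme markers, picked with their values known and with a median of -0.88, 0 of the 16 were at least 2-fold lower and 3 were higher, and of all probe sets 0.236% were lower and 36.4% higher. With ratios centred on a wider list of 27 limb mesenchyme factors, with a median of -0.58, 3 of the 16 were lower and 3 higher, and of all probe sets 0.729% were lower and 16.6% higher. In bulk tissue, fewer cells of a type and less RNA per cell cannot be told apart.

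**Figure D1:**
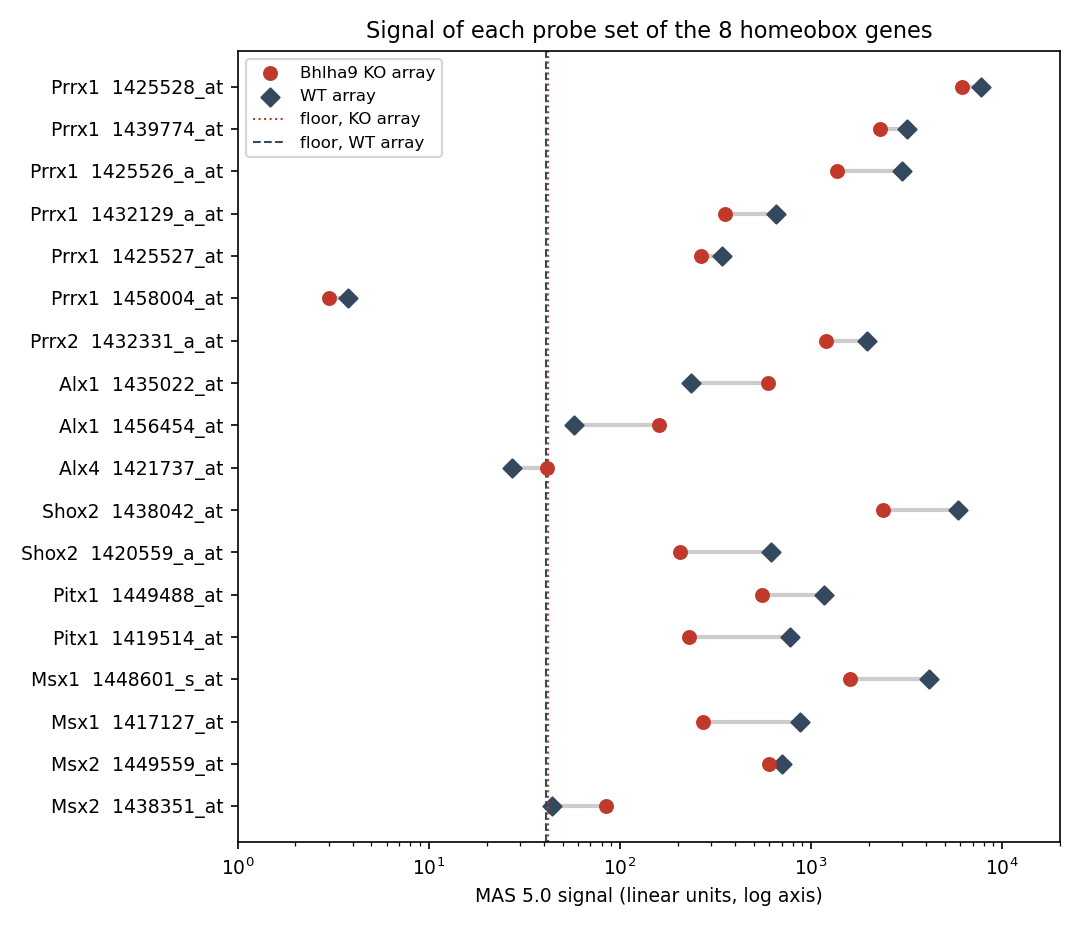
MAS 5.0 signal (log axis) of each of the 18 probe sets on the KO array (circles) and the WT array (diamonds), with the floor of each array as a vertical line and probe sets of a gene ordered by mean signal. The KO circles sit left of the WT diamonds for all probe sets of Prrx1, Prrx2, Shox2, Pitx1 and Msx1 and right of them for Alx1, and the single Alx4 probe set and 1 of Prrx1 are under both floors.

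Msx1, a repressor induced by BMP signals in distal limb mesenchyme, read 1596.9 on the KO array and 4137 on the WT array by its brighter probe set, 1448601_s_at. This corresponded to a log2 ratio of -1.37, or 2.59-fold lower. The suffix of this probe set marks oligonucleotides that also match other transcripts. The dimmer one, 1417127_at, was not of that kind and read 271.0 on the KO array and 872.3 on the WT array, a log2 ratio of -1.69 and 3.22-fold lower. Both were therefore lower on the KO array, and their ratios differed by 0.31, less than the SD of 0.396 between probe sets of a gene. Of the 24843 probe sets detected on both arrays, 1.18% had a ratio as low as the brighter and 0.374% as low as the dimmer one.

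Its paralogue Msx2, expressed in the apical ridge as well as in mesenchyme, gave no common direction. The brighter probe set, 1449559_at, read 599.1 on the KO array and 705.3 on the WT array, a log2 ratio of -0.24, which is smaller than the yardstick of 0.28. The dimmer one, 1438351_at, read 84.6 on the KO array and 43.9 on the WT array, a log2 ratio of 0.95. Its WT signal stood at 1.07 times the floor, where MAS 5.0 signals are least precise. The gap of 1.18 between these ratios was 2.98 times the SD between probe sets of a gene, and 3.12% of the 5440 genes had a gap as large. By the brightest probe sets, the ratio of Msx2 exceeded that of Msx1 by 1.14 on the log2 scale, 2.88 times that SD. This was no wider than the 1.18 between the Msx2 probe sets themselves, and the part of tissue mix in it was not tested.

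Shox2, a paired-type factor of the proximal limb, read 2375.7 on the KO array and 5901 on the WT array by 1438042_at, a log2 ratio of -1.31 and 2.48-fold lower. Its other probe set, 1420559_a_at, designed against several transcripts of the gene, read 206.1 on the KO array and 619.2 on the WT array, a log2 ratio of -1.59 and 3.0-fold lower. The KO signal was the lower one at both, with ratios 0.27 apart. Ratios as low as these were found for 1.46% and 0.555% of the probe sets detected on both arrays.

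Pitx1, the regulator of hindlimb identity, read 552.4 on the KO array and 1162.6 on the WT array by 1449488_at, a log2 ratio of -1.07 and 2.10-fold lower. After loess normalization this ratio was -0.99, just within 2-fold. The second probe set, 1419514_at, read 228.3 on the KO array and 778.9 on the WT array, a log2 ratio of -1.77 and 3.41-fold lower, the lowest ratio among the 16. Both are annotated to the same reference transcript, and their ratios lay 0.70 apart, 1.76 times the SD between probe sets of a gene. For Msx1, Shox2 and Pitx1 alike, the dimmer probe set had the lower ratio. For Alx1 and Msx2 the dimmer one had the higher ratio, and the ratios of Prrx1 did not follow the order of signal.

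**Figure D2:**
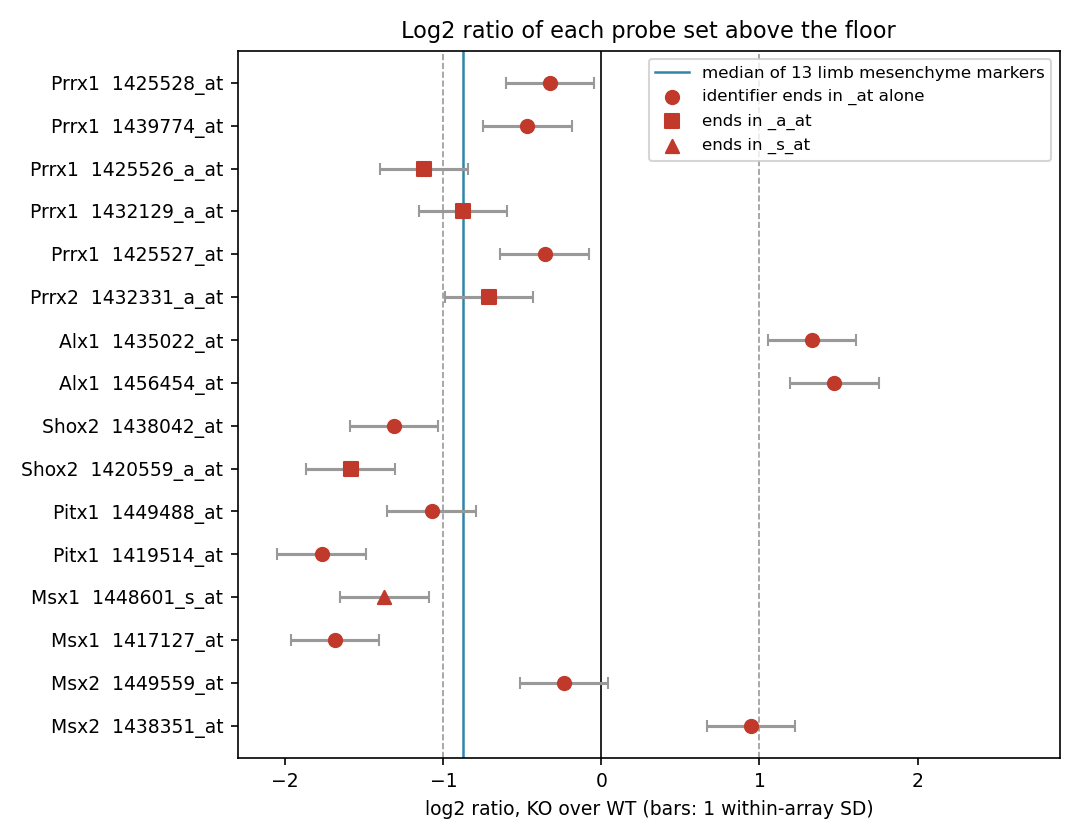
Log2 ratio, KO over WT, of the 16 probe sets above the floor, with bars of 0.28, the within-array SD of 1 ratio. Dashed lines mark 2-fold and the solid coloured line the median of 13 limb mesenchyme markers at -0.88. Probe sets of Shox2, Pitx1 and Msx1 lie left of the lower dashed line, both of Alx1 lie right of the upper one, and the 5 of Prrx1 spread between -1.12 and -0.33.

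Prrx1, a broad marker of limb mesenchyme, was covered by 6 probe sets, of which 5 were detected, all with negative ratios. The brightest, 1425528_at, read 6189 on the KO array and 7757 on the WT array, a log2 ratio of -0.33. The next, 1439774_at, read 2303.5 on the KO array and 3186 on the WT array, a ratio of -0.47. These are both small differences, of 1.16 and 1.67 times the yardstick. Probe set 1425526_a_at, which matches several transcripts of the gene, was the only one past 2-fold, at 1367.6 on the KO array and 2977 on the WT array, a log2 ratio of -1.12 and 2.18-fold lower. The other of this kind, 1432129_a_at, read 355.7 on the KO array and 653.3 on the WT array, a ratio of -0.88. The dimmest detected probe set, 1425527_at, read 266.2 on the KO array and 341.6 on the WT array, a ratio of -0.36. The 2 probe sets for several transcripts thus had the lowest ratios of the 5, and the widest gap, 0.80 between 1425526_a_at and the brightest, was 2.01 times the SD between probe sets of a gene. Which transcripts of Prrx1 each probe set reads was not analysed here. The sixth, 1458004_at, was under the floor at 3.0 on the KO array and 3.77 on the WT array.

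Prrx2, which overlaps with Prrx1 in limb mesenchyme, had a single probe set, 1432331_a_at, at 1192.4 on the KO array and 1951.3 on the WT array. The log2 ratio of -0.71, or 1.64-fold lower, was 2.54 times the yardstick, and 10.8% of probe sets had a ratio as low. It was 0.38 below that of the brightest Prrx1 probe set and inside the range of the 5 Prrx1 ratios, so the paralogues were not separated.

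Alx1, a paired-type factor of cranial and limb mesenchyme involved in cartilage formation, was the member that ran the other way. Probe set 1435022_at read 591.6 on the KO array and 234.7 on the WT array, a log2 ratio of 1.33 and 2.52-fold higher. Probe set 1456454_at read 159.5 on the KO array and 57.4 on the WT array, a ratio of 1.47 and 2.78-fold higher. The KO signal was higher at both, and the ratios lay 0.14 apart. Ratios this high were found for 0.986% and 0.648% of the probe sets detected on both arrays. The WT signal of the dimmer one stood at 1.39 times the floor, and with the floor at the 60th percentile only the brighter probe set remained past 2-fold. Alx4, its paralogue, which in mouse limits anterior digit formation, did not reach either floor, with 41.4 on the KO array and 27.1 on the WT array. The KO signal of Alx4 came to 0.991 of its floor, and no ratio is given for it.

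Ordered by the brightest probe set, the log2 ratios ran from Alx1 at 1.33 through Msx2 at -0.24, Prrx1 at -0.33, Prrx2 at -0.71, Pitx1 at -1.07 and Shox2 at -1.31 to Msx1 at -1.37. The step from Alx1 to Msx2, of 1.57, was 3.97 times the SD between probe sets of a gene. Every other step between neighbours was smaller than that SD, the widest being 0.38 between Prrx1 and Prrx2, so the order within the 6 negative ratios is not resolved for neighbours.

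**Figure D3:**
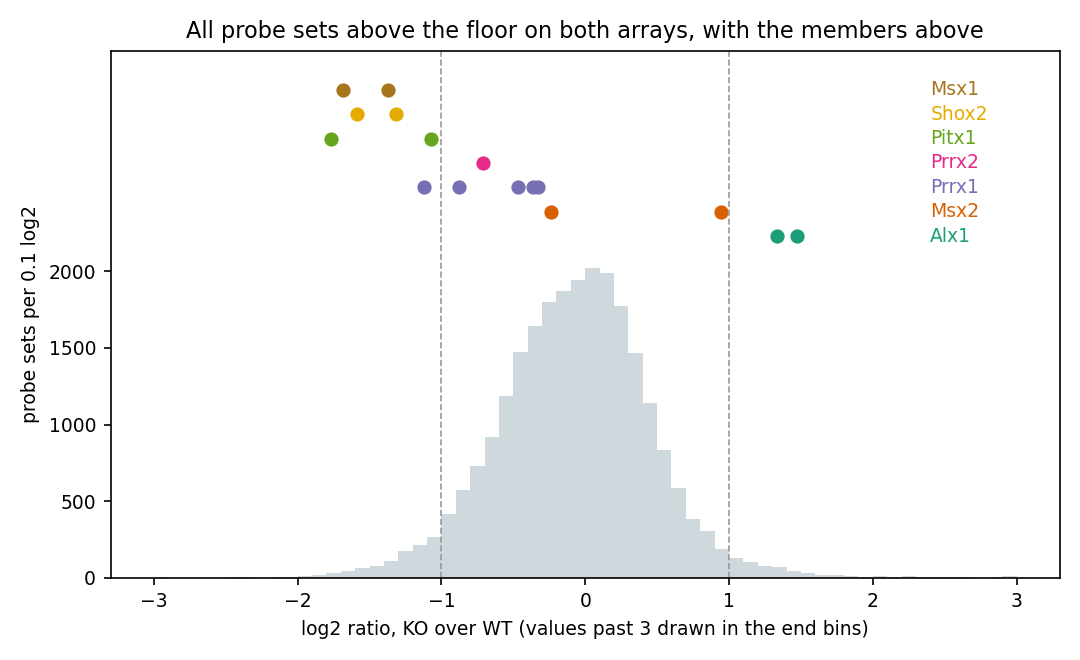
Histogram of the log2 ratio, KO over WT, of the 24843 probe sets above the floor on both arrays, in bins of 0.1, with the 16 member probe sets as coloured points above it and dashed lines at 2-fold. The histogram has its median at -0.06, 7 member points lie past the lower line and the 2 of Alx1 past the upper one.

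The lower readings of the members stood beside lower readings of other limb mesenchyme genes on the same array. Of 13 limb mesenchyme markers, none of them a member, 12 were above the floor on the KO array and 13 on the WT array. Their summed signal was 13639 on the KO array and 25285 on the WT array, 5 were at least 2-fold lower, 0 were higher, and all 13 ratios were negative with a median of -0.88. With the ratios centred on these markers, 0 member probe sets were at least 2-fold lower, and the ratios of the brightest probe sets became -0.50 for Msx1, -0.44 for Shox2, -0.20 for Pitx1, 0.17 for Prrx2, 0.55 for Prrx1, 0.64 for Msx2 and 2.21 for Alx1. This centring moved the median of all genes detected on both arrays to 0.87, against -0.01 as deposited. The markers were chosen with their readings on these arrays known, and 10 of the 13 recur in a wider list of 27 limb mesenchyme factors, which went both ways. Of those 27 ratios, 21 were negative and 6 positive, with a median of -0.58. With ratios centred on the wider list, an alternative added after the data were seen, the dimmer probe sets of Msx1, Shox2 and Pitx1 were still at least 2-fold lower. By the brightest probe sets the ratios were then -0.80 for Msx1, -0.74 for Shox2 and -0.50 for Pitx1, and 1.91 for Alx1.

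Markers of several other tissues, though not of all, were higher on the KO array. Of 12 measured liver and gut markers, 12 were above the floor on the KO array and 2 on the WT array, with summed signals of 33613 on the KO array and 403.0 on the WT array. The 11 neural markers summed to 3235 on the KO array and 461.7 on the WT array, and 10 were above the floor on the KO array against 4 on the WT array. Skeletal muscle markers summed to 3180 on the KO array and 1956 on the WT array, with 5 of 7 at least 2-fold higher and Chrna1 2.19-fold lower. Of these markers, 7 were above the floor on the KO array and 5 on the WT array. The KO signal of Chrna1, 46.6, was close to the KO floor of 41.8. The sums of ectodermal markers were 10951 on the KO array and 6369 on the WT array. Flank, somite and lateral plate markers summed to 3559 on the KO array and 2003 on the WT array, with 3 of 7 at least 2-fold higher. Of 8 measured markers of branchial arch and face mesenchyme, 4 were above the floor on both arrays, and Lhx6 and Lhx8 were under both floors. Dlx1 and Dlx2 were the 2 at least 2-fold higher, and 0 were at least 2-fold lower. The WT signal of Dlx1, 41.9, was barely above the WT floor of 41.2, where MAS 5.0 signals are least precise. The sums of this list were 699.6 on the KO array and 381.1 on the WT array. Endothelial markers ran the other way, with sums of 3944 on the KO array and 4872 on the WT array. Of their 7 ratios, 6 were negative and 2 at least 2-fold lower, with a median of -0.69. Tie1, among these 2, read 29.4 on the KO array, under the floor, so its ratio is a bound. Over the 6 genes above the floor on both arrays the median was -0.41. Red cell markers were nearly level, at 90344 on the KO array and 85095 on the WT array, with a median ratio of 0.08. The part of these tissues in the readings of Alx1 and of the lower members was not tested.

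**Figure D4:**
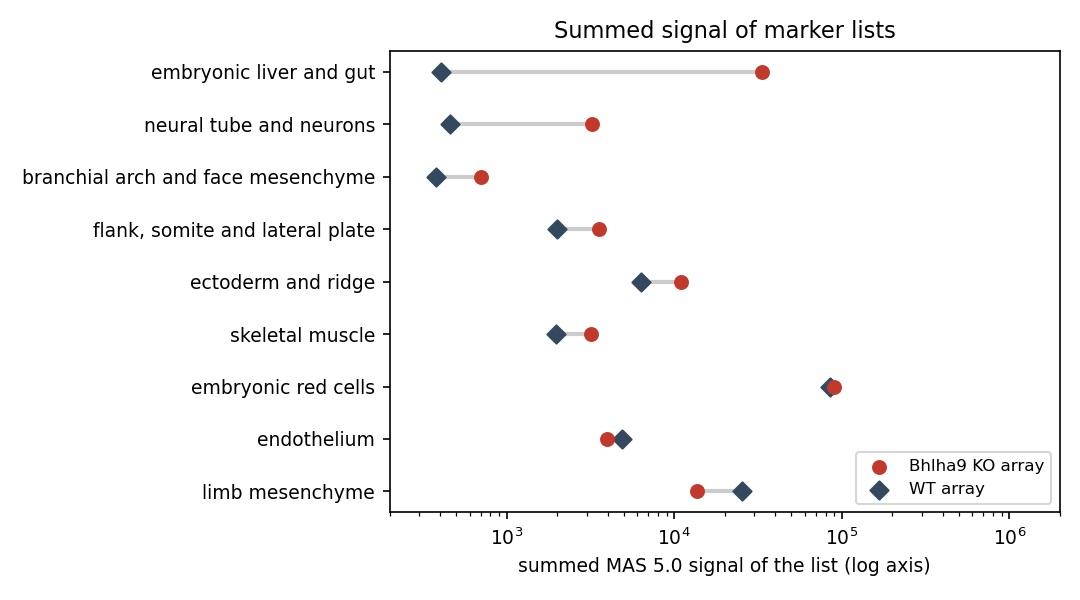
Summed MAS 5.0 signal (log axis) of 9 marker lists on the KO array (circles) and the WT array (diamonds), each gene read by its brightest probe set. Liver and neural lists lie furthest apart, with the KO sum higher, and the limb mesenchyme list has the lower sum on the KO array.

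Other paired-type genes were set beside the members. Of 22 measured genes of this class and its Msx relative Msx3, 11 were detected, 7 of them on both arrays. Of the 11, 3 were at least 2-fold higher on the KO array and 0 lower, and the median log2 ratio was 0.41. This median depended on the treatment of low signals, at 0.03 when the floor was raised to the 60th percentile and 0.09 when a pseudocount of 32 replaced it. Msx3, a gene of the dorsal neural tube, read 116.5 on the KO array and 45.7 on the WT array, 2.55-fold higher. Uncx, a gene of somites, read 161.5 on the KO array and 73.4 on the WT array, 2.20-fold higher. The other gene past 2-fold, Pax6, read 146.3 on the KO array and 6.72 on the WT array. The latter is under the floor, so the Pax6 ratio of 1.83 is a bound. Pax3, which marks dorsal neural tube and muscle precursors, stood at 0.60 and Gsc, a gene of facial mesenchyme, at 0.58. Of the remaining genes, 11 were under both floors, among them the forebrain genes Otx1 and Otx2. Among the 27 other limb mesenchyme factors, 6 were at least 2-fold lower and 2 higher. Lmx1b, the dorsal determinant, Tbx15 and Sall3 had ratios of -1.92, -1.50 and -1.46, and Tfap2b and Emx2 had ratios of 1.73 and 1.15. Over all 13088 detected genes the median was 0.01.

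Genes upstream and downstream of members were mixed. BMP signalling acts upstream of Msx genes, and of its 19 detected pathway genes 2 were at least 2-fold higher, 1 was lower, and 12 ratios were positive, with a median of 0.18. The ligand gene Bmp4 read 1489.5 on the KO array and 2862 on the WT array, a log2 ratio of -0.94. Among the antagonists, Grem1 had a ratio of -1.30 and Fst one of 1.53, and the response gene Id4 had one of 1.10. In the hindlimb programme, 4 genes were detected. Tbx4, a hindlimb T-box gene downstream of Pitx1, read 1195.4 on the KO array and 2810 on the WT array, 2.35-fold lower. Hoxc10 had a ratio of -0.69 and Hoxc9 one of 0.03, whereas Isl1, which acts upstream in the early hindlimb field and is also a motor neuron gene, read 3355 on the KO array and 973.3 on the WT array, 3.45-fold higher. The forelimb gene Tbx5 stood at -0.60. Of 9 detected prechondrogenic and stylopod genes, 0 were past 2-fold in either direction and the median was -0.13. The tendon and cartilage progenitor gene Scx had the largest ratio among those detected on both arrays, 0.91, followed by Sox5 at -0.69, Hapln1 at 0.68 and Col2a1 at 0.64.

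**Figure D5:**
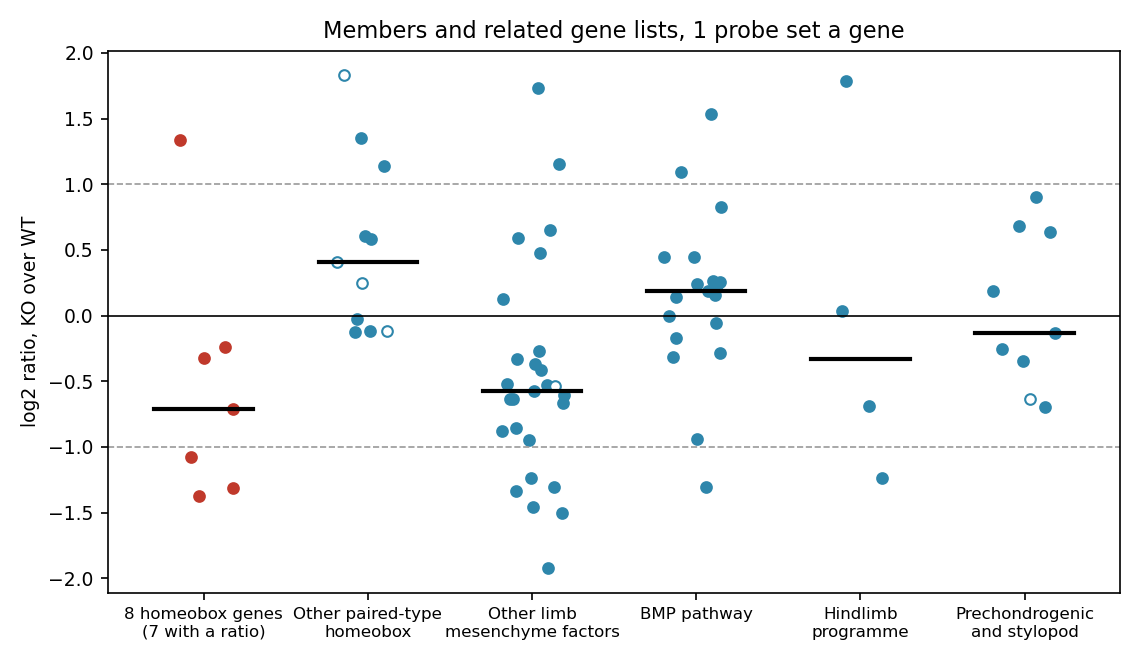
Log2 ratio, KO over WT, of the 7 members with a ratio and of the detected genes of 5 related lists, 1 probe set a gene. Open points were above the floor on a single array, so that their ratio is a bound, black bars are medians and dashed lines mark 2-fold. The member median of -0.71 and that of the other limb mesenchyme factors, -0.58, lie below 0, and those of the BMP and other paired-type lists above it.

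The sequence before the start of 5 members was at hand from RefSeq on the GRCm38.p6 build, as windows from 250 bases before to 50 bases after the annotated start, and those of Msx1, Msx2 and Shox2 are shown. The Msx paralogues are shown because the ratios of their brightest probe sets differed, and Shox2 because it was past 2-fold at both probe sets. They lie at chr5:37824536-37824835, chr13:53472731-53473030 and chr3:66981722-66982021, all on the minus strand, and are written 5′ to 3′ along the gene. Capitals mark matches on either strand to the E-box CANNTG, a core of basic helix-loop-helix factors, the homeodomain core TAATTA, the TATA element TATAAA and the CCAAT element CCAAT. No match overlapped another.
Msx1: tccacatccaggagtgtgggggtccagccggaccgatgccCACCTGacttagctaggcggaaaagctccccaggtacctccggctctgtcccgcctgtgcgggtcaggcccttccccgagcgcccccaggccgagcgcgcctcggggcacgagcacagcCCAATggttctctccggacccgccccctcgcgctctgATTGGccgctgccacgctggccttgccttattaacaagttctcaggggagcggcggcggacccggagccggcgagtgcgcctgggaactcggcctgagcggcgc
Msx2: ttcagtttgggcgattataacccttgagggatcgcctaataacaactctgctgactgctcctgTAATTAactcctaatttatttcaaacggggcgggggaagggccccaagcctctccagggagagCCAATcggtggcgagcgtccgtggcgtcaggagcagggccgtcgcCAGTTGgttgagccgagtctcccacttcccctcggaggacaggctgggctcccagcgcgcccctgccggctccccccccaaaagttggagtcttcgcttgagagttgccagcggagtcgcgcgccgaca
Shox2: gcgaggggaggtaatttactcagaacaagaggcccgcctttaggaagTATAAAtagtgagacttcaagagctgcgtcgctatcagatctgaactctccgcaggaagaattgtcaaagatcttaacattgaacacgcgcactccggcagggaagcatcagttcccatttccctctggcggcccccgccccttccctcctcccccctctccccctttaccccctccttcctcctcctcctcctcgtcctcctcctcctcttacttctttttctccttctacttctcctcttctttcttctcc
Msx1 held 1 E-box, CACCTG, beginning 210 bases before the start, and 2 CCAAT elements beginning 91 and 54 bases before it. Msx2 held 1 E-box, CAGTTG, at 79 bases, 1 homeodomain core at 187 bases and 1 CCAAT element at 124 bases. Shox2 held 0 E-boxes and 1 TATAAA at 203 bases. Prrx1 held 0 E-boxes and 1 homeodomain core, and Prrx2 held 0 matches to any of the 4. Over all 32851 windows of this length, 72.3% held an E-box, 5.29% the homeodomain core, 13.6% TATAAA and 37.4% CCAAT. Whether any of these matches bears on the ratios was not tested. A match is a description of these letters and not a bound site.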

How the data were processed

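RNA was labelled with a 3′ in vitro transcription kit and hybridised to Affymetrix Mouse Genome 430 2.0 arrays, per the labels' protocols. The deposited values are intensities summarised with MAS 5.0 by the authors, per the series' design text, on a linear scale. The 2% trimmed mean over all 45101 probe sets was 500.0 on both arrays. MAS 5.0 scales each array on its own, so a change in tissue composition can move the other ratios, which was not tested here. Its lowest signals are the least precise.

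After 64 control probe sets were set aside, genes were named from the platform annotation, updated by Entrez identifier through RefSeq genes (34741 of 34945 single-symbol probe sets matched). Signals under the floor were raised to it before log2. Per gene, the probe set of the highest mean over both arrays was used among those with 1 symbol, and every member probe set was also read alone. With 1 array a group there was no test, and precision is limited by how few arrays there are. The steps were tested on simulated data. Of the related lists, up to 4 genes were named, by the size of the ratio among those detected on both arrays. Otx1, Otx2, Pax6, Tbx5, Dlx1, Dlx2, Lhx6, Lhx8, Emx2, Chrna1 and Tie1 were added after their values were seen. Members and lists were chosen with earlier results of these data known. Alternatives covered normalization (limma 3.58.1), the floor, the probe sets and the fold. Python 3.11.15 with numpy 2.4.6, pandas 2.3.3 and matplotlib 3.10.9 was used.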

Additional observations from a re-analysis of the deposited data

How the results depend on the processing

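Of 13 alternatives, 1 of them added after the data were seen, median centring, quantile normalization and loess left the counts of member probe sets and genes past 2-fold within 1.5 times those reported, and so did a floor at the 20th percentile, a pseudocount of 32 in place of a floor and a threshold of 1.5-fold. Centring adds the same amount to every ratio. On the limb mesenchyme markers, picked with their values known, it left 0 member probe sets and 0 genes at least 2-fold lower and 3 probe sets higher, with a median of 0.082, where 69 of all probe sets were lower and 10637 higher. On the wider list of limb mesenchyme factors, the added alternative, it left 3 probe sets and 0 genes lower and 3 probe sets higher, with a median of -0.216, where 213 of all were lower and 4838 higher. Without probe sets ending in _s_at, _x_at or _a_at, 13 of the 18 member probe sets remained, detected or not. Of these, 4 were at least 2-fold lower, in place of 7, and the median was -0.36. Of all 22189 probe sets then detected on at least 1 array, 5.0% were lower. At a threshold of 3-fold, 3 probe sets and 0 genes were lower and 0 of either were higher. Of all probe sets, 0.709% were then lower and 0.86% higher. With the floor at the 60th percentile, 1 probe set was at least 2-fold higher, against 1.28% of all. Of 11 alternatives for a gene's ratio, 10 for Prrx2, the ratio stayed past 2-fold in 11 for Alx1, 9 for Shox2, 9 for Msx1 and 8 for Pitx1, and those of Prrx1, Prrx2 and Msx2 did not reach it in any that was run. Not all of these could move a ratio, since both other floors and the choice of probe set by WT signal returned the reported values. Leaving out probe sets by suffix did so too for Prrx1, Alx1, Shox2, Pitx1 and Msx2. Both centrings raise every ratio, so they could not bring Alx1 within 2-fold. The mean over both Msx2 probe sets was 0.35, opposite in sign to the brighter one. Higher probe sets made up 41.7% of all 2-fold calls as deposited, 53.1% after loess, 35.5% when the floor was raised to the 60th percentile, and 99.4% and 95.8% with centring on the marker and the wider list. No paired analysis was possible because each genotype has 1 array. The signal over background limits the readings of Alx4, of the dimmer Msx2 probe set and of the dimmer Alx1 probe set. Among genes named from the lists, it limits those of Dlx1, Msx3 and Chrna1 as well.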
